A study of Mus musculus with 108 samples.

Results

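The change in total RNA between 2 stages of oocyte maturation was measured in single mouse oocytes that lack Exosc10. The comparison took in 11 of the 108 libraries of the study: 4 mature eggs at metaphase II (MII) against 7 immature oocytes at the germinal vesicle (GV) stage. They were chosen by their titles, which give the stage, the knockout (cKO) and the library type, and none was chosen by a measured value. All 11 carry the genotype that the labels call an Exosc10 oocyte-specific knockout. The Cre driver, strain and age are not given in the sources used here.

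The 11 libraries are RiboMinus libraries, made from total RNA with random hexamer primers and without selection for a poly(A) tail. The GV oocytes had been kept in M2 medium outside the body, whereas the MII eggs were taken from oviducts, so stage, culture and place of maturation cannot be told apart. The GV oocytes came from 2 females, 3 from V1126 and 4 from V1131, and the eggs came from 2 others, 2 each from V1166 and V1167. No female gave oocytes of both stages. Oocytes are used as the replicates below, although oocytes of 1 female are not independent. The p-values over oocytes therefore do not measure the spread between females. For comparison, 8 GV and 3 MII control RiboMinus oocytes were used, the 3 control eggs all from female V1145, together with 15 GV and 15 MII cKO oocytes whose RNA had been captured by its poly(A) tail (polyA libraries).

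A fully grown oocyte is transcriptionally silent, and it completes meiosis with the RNA it stored while growing. Part of that RNA is kept dormant with short poly(A) tails and is lengthened and translated during maturation, while other maternal mRNAs are deadenylated and degraded. A library selected on poly(A) tails therefore responds to tail length as well as to RNA amount, and a library made without that selection depends much less on the tail. EXOSC10 is a 3′ to 5′ exonuclease of the nuclear RNA exosome, the complex that trims ribosomal and small nucleolar RNA precursors and removes unstable nuclear transcripts.

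Exosc10 (Ensembl ENSMUSG00000017264, chr4:148558429-148582401, plus strand, GRCm38) came first, because its level tests the genotype labels. In the cKO GV oocytes its lowest, median and highest levels were 0.806, 3.95 and 8.69 CPM (CPM, counts relative to the library total, scaled by TMM factors), and in the 4 cKO eggs they were 0.467, 3.75, 2.24 and 1.49 CPM. Control GV oocytes had 91.6, 125 and 159 CPM and control eggs had 81.9, 99.1 and 103 CPM, so no cKO oocyte reached the level of any control. Between the stages of the cKO the difference was not called (log2 change -0.89, SE 0.67, adjusted p 0.387). Gene counts per library ran from 13665258 to 23414673 at GV and from 20678209 to 62675760 at MII, where V1166 egg 1 was the deepest. On principal components of log2 CPM, the first component (33.9% of the variance) put the eggs at one end, and GV oocytes 2 and 3 of V1126 stood apart on the second (19.4%). All 8 oocyte marker genes were detected in all 11 libraries. Of these 8, 0 were called higher at MII and 3 (37.5%) lower, against 7.4% and 8.67% of all tested genes. The 3 were Ddx4 (log2 change -1.74, adjusted p 0.00506), Zp3 and Nlrp5, and with female V1131 left out 0 were called. The 13 cumulus and granulosa marker genes summed to between 100.5 and 215 CPM at GV and between 75.9 and 117 CPM at MII, and 0 of the 7 that could be tested were called. Most of that sum was Nr5a2, while GV oocyte 2 of V1126 had 29.1 CPM of Amh and 15.0 CPM of Inha, granulosa cell genes that were at most at 0.767 and 3.05 CPM in the other 10 libraries. Of the same list, Fshr was at 14.5 CPM in V1167 egg 1 and Ptgs2 at 22.8 CPM in V1167 egg 2, against at most 2.25 and 6.07 CPM at GV. The part of granulosa or cumulus RNA in these libraries was not tested. The hemoglobin genes were at 0 in all libraries except V1166 egg 2, with 0.261 CPM of Hbb-bs.

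Taken over oocytes, the cKO stage change was broad. With edgeR's quasi-likelihood test, 2770 of 17234 tested genes (16.1%) differed between GV and MII at an adjusted p under 0.05. Of these, 1275 (7.4% of those tested) were higher in eggs and 1495 (8.67%) were lower. The change was at least 2-fold for 765 of the higher and 1181 of the lower genes, and the median log2 change over all tested genes was 0.00. The levels of the 4 eggs lay entirely above those of the 7 GV oocytes for 957 genes (5.55% of those tested) and entirely below for 1022 (5.93%), and 1663 of the non-overlapping genes were also called.

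How many genes were called depended on the females. Without V1131, which gave 4 of the 7 GV oocytes, 203 genes were called, 75 higher and 128 lower, and 190 of these were among the 2770. Without V1166, 396 genes were called higher and 599 lower, and without V1126 the count was 4150. With counts summed to 1 library per female, 2 against 2, edgeR called 0 genes at the adjusted threshold, although 3654 had an unadjusted p under 0.05 against 5428 in the test over oocytes. With limma voom, taking the female as a random effect, 802 genes were called, and the correlation within females was estimated at 0.28. DESeq2 over oocytes called 4146. Of the genes named by rule that were called, 17 of 97 were also called without V1131, and 48 of 99 with the female as a random effect. Among the single genes described below outside the gene lists, Nhs, Ovgp1, Nes, Ptgfrn, Slc34a2, Mrpl12, Fam124a and CT009755.2 were not called with that random effect. Many members of the gene lists also lost their calls, and the calls that remained are counted with each list.

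Other changes are set beside this one below. The control RiboMinus change was called for 5042 of 16340 genes (30.9%, median log2 change −0.03) and the polyA cKO change for 9887 of 13217 (74.8%, median −0.17). The cKO change differed from the control change for 2837 of 19110 genes (14.8%, median difference 0.04), and from the polyA change for 7840 of 17208 (45.6%, median difference 0.08). In the same order, 15% of genes were called higher and 15.8% lower in controls, 33.1% and 41.7% in polyA libraries, 7.85% and 7% for the genotype difference and 22.6% and 23% for the difference between library types. Counts of gene lists below are to be read against these shares. The polyA split depended on scaling: of its called genes, 44.3% were higher with TMM (4378 higher, 5509 lower) and 27.9% with library totals (2812 higher, 7251 lower, median −0.62). With library totals 14 of the 15 dormant mRNAs described below were still called higher in polyA libraries, and 72 of 74 ribosomal protein genes lower.

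**Figure D1:**
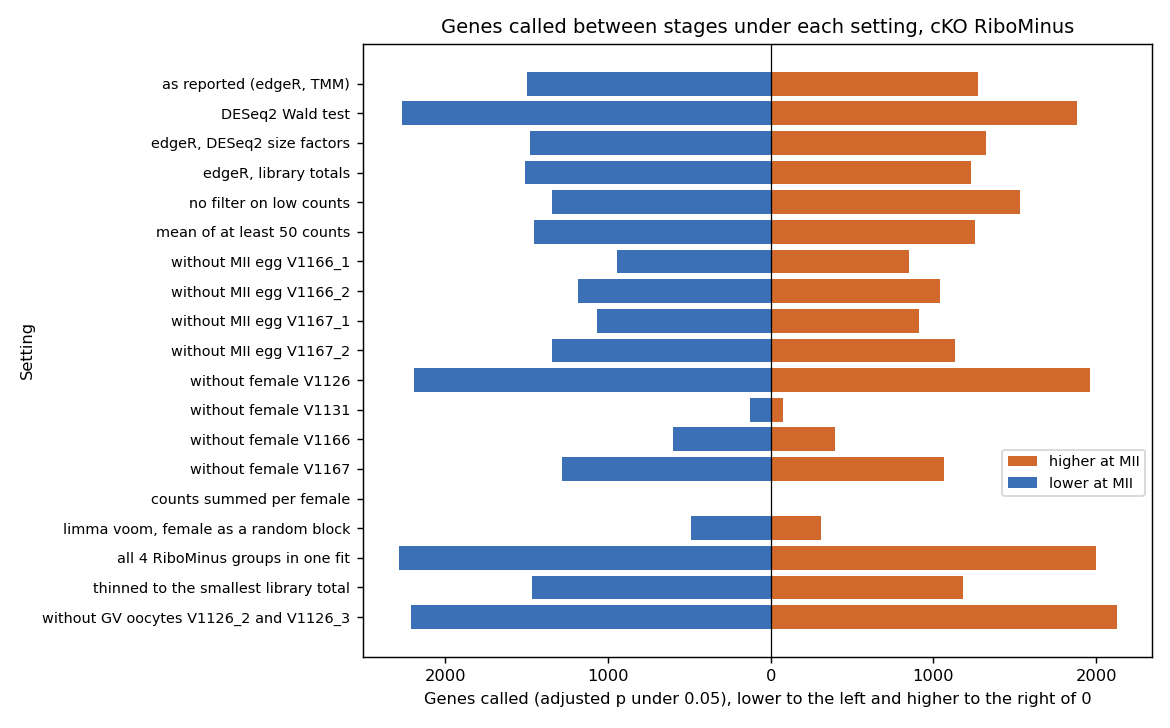
Genes called higher and lower in cKO eggs than in cKO GV oocytes (x axis, number of genes, lower to the left and higher to the right of 0) under each setting (y axis). The count falls from 2770 to 203 without female V1131 and to 0 with counts summed per female, and is 4333 without GV oocytes 2 and 3 of V1126.

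Among the rises, a few genes went from near absence to a clear level in eggs in these RiboMinus libraries. Among called genes whose stages did not overlap and whose mean log2 CPM was 4 or more, the largest rise was that of Tktl1 (ENSMUSG00000031397, chrX:74177259-74208500, plus strand), which encodes a transketolase-like protein. The lowest, median and highest GV oocytes had 0, 0 and 2.33 CPM, and the eggs, in the order V1166 egg 1, V1166 egg 2, V1167 egg 1 and V1167 egg 2, had 48.0, 73.7, 52.0 and 93.3 CPM. Every egg was above every GV oocyte, in both egg females (log2 change 7.31, SE 0.98, adjusted p 0.00118). Selenop (ENSMUSG00000064373, chr15:3268547-3280508, plus strand), the gene of a secreted selenium carrier, had 0, 0.525 and 2.93 CPM at GV and, in the same order, 193, 41.9, 24.1 and 60.0 CPM in eggs. All 4 eggs were again above all 7 GV oocytes, with V1166 egg 1 highest (log2 change 6.20, SE 0.81, adjusted p 0.00105). Tktl1 and Selenop were both still called without V1131. In polyA cKO GV oocytes, from other females, they had medians of 26.1 and 13.7 CPM and highest levels of 117 and 38.8 CPM. Selenop had 3.82, 20.2 and 96.0 CPM in polyA cKO eggs (lowest, median and highest), which overlapped the polyA GV levels.

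Mapk10, Nhs and the pseudogene Gm28438 were also among the 8 largest rises of such genes. Mapk10, the gene of a Jun kinase known from neurons, had 0.712, 4.06 and 10.9 CPM at GV and 48.0, 33.5, 60.2 and 33.7 CPM in eggs, with no overlap (log2 change 2.92, SE 0.55, adjusted p 0.00496). Nhs, which encodes a regulator of actin remodelling, had 0.138, 9.38 and 29 CPM at GV and 127, 33.8, 92.2 and 141 CPM in eggs (log2 change 3.02, SE 0.83, adjusted p 0.0257). V1166 egg 2 lay close to the highest GV oocyte, and the Nhs call was lost when any 1 of the other 3 eggs was left out. Gm28438 (ENSMUSG00000101939, chr1:24612775-24613119, minus strand), an unprocessed pseudogene, rose from 31.7, 55.9 and 65.6 CPM to 194, 557, 177 and 278 CPM (log2 change 2.52, SE 0.29, adjusted p 5.30e-04). This annotated pseudogene belongs to a stretch of chromosome 1 that resembles mitochondrial DNA, so how reads were divided between the copies is uncertain.

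Ovgp1, the gene of the main glycoprotein secreted by oviduct epithelium, was also among the rises. It had 0.110, 0.497 and 6.11 CPM at GV and 85.3, 78.5, 9.25 and 6.95 CPM in eggs, so both V1166 eggs were far above both V1167 eggs, and the lowest egg was just above the highest GV oocyte (log2 change 4.49, SE 0.99, adjusted p 0.00990). The call was lost without V1166 and without V1131. The 4 oviduct epithelium markers (Ovgp1, Foxj1, Pax8 and Krt7) were all detected in each stage and summed to between 0.329 and 6.60 CPM at GV and between 7.58 and 87.5 CPM at MII, most of it Ovgp1. Foxj1, a master regulator of ciliated cells, was at 1.14 CPM in V1166 egg 1, 0 in V1166 egg 2 and under 0.2 CPM in the other eggs. Pax8 was at 3.18 CPM and Krt7 at 2.66 CPM in V1166 egg 2, and Krt7 was at 4.58 CPM in V1167 egg 1, against at most 0.397 and 0.393 CPM at GV. Whether RNA of oviduct cells contributed to Ovgp1 or to the other rises was not tested. In the 3 control eggs, which also came from an oviduct, the same 4 markers summed to between 0 and 1.07 CPM.

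The largest falls by the same criteria left low levels in all 4 eggs. Col4a3 (ENSMUSG00000079465, chr1:82586921-82722059, plus strand), which encodes a collagen chain of basement membranes, had 10.6, 29.3 and 34.6 CPM at GV and 3.27, 0.365, 0.857 and 1.02 CPM in eggs, with no overlap (log2 change -4.15, SE 0.59, adjusted p 0.00144). C1galt1c1 (ENSMUSG00000048970, chrX:38630785-38635087, minus strand), the gene of a chaperone needed for mucin-type O-glycans, had 20.4, 26.5 and 36.1 CPM at GV and 2.08, 0.678, 3.65 and 3.26 CPM in eggs (log2 change -3.51, SE 0.42, adjusted p 6.11e-04). Tmem168, a membrane protein gene, had 40.9, 99.6 and 155 CPM and then 7.81, 5.06, 13.3 and 9.35 CPM (log2 change -3.35, SE 0.45, adjusted p 0.00118). In these 3 genes the eggs were below every GV oocyte. Ammecr1 fell in the same way, from 22.3, 72.2 and 164 CPM to 3.83, 5.42, 5.14 and 7.89 CPM (log2 change -3.89, SE 0.59, adjusted p 0.00218). The 4 genes were all still called without V1131.

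For some of the largest falls, the GV level itself differed between females. Nes, the gene of the intermediate filament nestin, had 2.63, 24.7 and 50.8 CPM at GV and 0.519, 2.03, 2.42 and 0.864 CPM in eggs (log2 change -4.14, SE 0.87, adjusted p 0.00793). All 4 V1131 oocytes, at 24.7 CPM or more, were above all 3 V1126 oocytes, at 8.84 CPM or less. Irf2bp1, the gene of a transcriptional corepressor, had 4.78, 15.0 and 58.4 CPM at GV and 0.640, 1.77, 3.24 and 1.10 CPM in eggs (log2 change -4.02, SE 0.79, adjusted p 0.00576), and its 3 highest GV oocytes were from V1131. Ptgfrn, whose protein binds tetraspanins, had 17.0, 55.4 and 186 CPM at GV and 9.99, 8.50, 7.20 and 3.26 CPM in eggs (log2 change -3.68, SE 0.69, adjusted p 0.00503), and Lysmd3 had 11.1, 62.5 and 106 CPM and 4.60, 2.09, 11.04 and 4.28 CPM (log2 change -3.55, SE 0.61, adjusted p 0.00342). In these 4 genes no egg reached any GV oocyte, and the calls were lost without V1131.

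Some abundant maternal mRNAs also fell. Dnmt1 (ENSMUSG00000004099, chr9:20907209-20959888, minus strand), the maintenance DNA methyltransferase, had 1166.3, 3176 and 4692 CPM at GV and 601, 601, 844 and 991 CPM in eggs (log2 change -2.01, SE 0.34, adjusted p 0.00304). Rif1 (ENSMUSG00000036202, chr2:52072832-52122383, plus strand), a regulator of replication timing and DNA repair, was tightly grouped at GV with 1136, 1235 and 1341 CPM, and the eggs had 581, 524, 309 and 402 CPM (log2 change -1.45, SE 0.18, adjusted p 7.31e-04). Neither gene overlapped between the stages, and both were called without V1131. Cul1, the scaffold of SCF ubiquitin ligases, had 817, 935 and 1306 CPM at GV and 390.3, 752, 343 and 405 CPM in eggs (log2 change -1.04, SE 0.22, adjusted p 0.00889), where V1166 egg 2 stood above the other 3 eggs. The Cul1 call was lost without V1131 and without V1167. Cpeb1, whose protein binds the cytoplasmic polyadenylation element of dormant mRNAs, had 770.5, 951.3 and 1095 CPM at GV and 222, 188, 665 and 616 CPM in eggs (log2 change -1.16, SE 0.31, adjusted p 0.0244). The V1167 eggs lay between the V1166 eggs and the GV oocytes for Cpeb1, and its call was lost when either V1166 egg was left out, and without V1126 and without V1131.

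**Figure D2:**
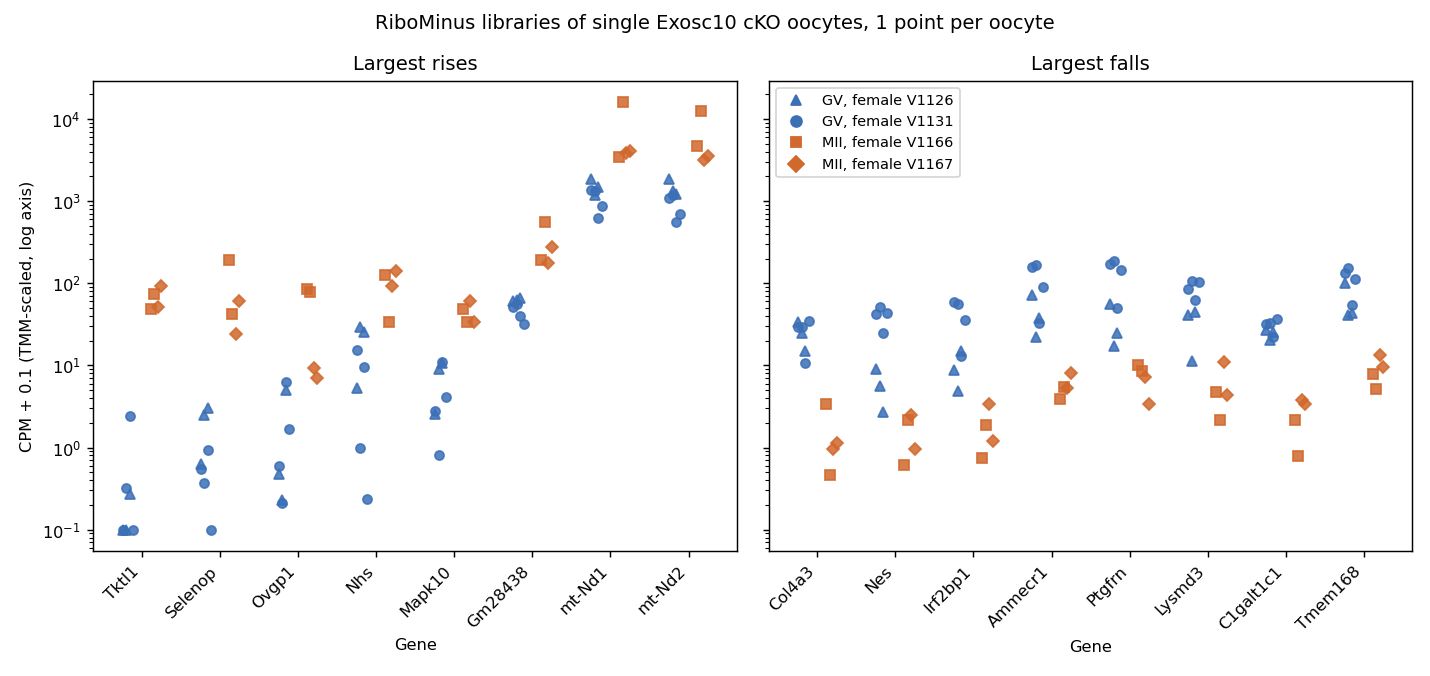
Levels of the genes with the 8 largest named rises (left) and the 8 largest named falls (right) in each of the 7 cKO GV oocytes and 4 cKO eggs (y axis, CPM plus 0.1, log axis), 1 point per oocyte with its shape giving the female. Tktl1 lies between 0 and 2.33 CPM at GV and between 48.0 and 93.3 CPM in eggs, and mt-Nd1 and mt-Nd2 are highest in V1166 egg 2.

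Mitochondrial mRNAs, transcribed from the mitochondrial genome and encoding subunits of the respiratory chain, were higher in eggs as a group. Of 13, 7 were tested, 6 (85.7%, against 7.4% of all tested genes) were called higher and 0 lower, and their median log2 change was 1.38 against 0.00 over all tested genes. The gene mt-Nd1, for a subunit of complex I, had 626, 1345 and 1869 CPM at GV and 3430.3, 15927, 3879.6 and 4119 CPM in eggs (log2 change 2.45, SE 0.40, adjusted p 0.00273). The gene mt-Nd2, for another complex I subunit, had 558, 1194 and 1837 CPM at GV and 4709.8, 12684, 3208 and 3555 CPM in eggs (log2 change 2.41, SE 0.37, adjusted p 0.00230). The catalytic subunit of cytochrome oxidase, mt-Co1, was at 1571, 2053 and 2662 CPM at GV and at 2861, 9685, 4481 and 4595 CPM in eggs (log2 change 1.38, SE 0.27, adjusted p 0.00572). No egg overlapped a GV oocyte for these 3 genes, although V1166 egg 1 was near the highest GV oocyte for mt-Co1. The log2 changes of mt-Cytb, mt-Nd4 and mt-Nd5 were 1.35, 1.75 and 1.35, with adjusted p of 0.0114, 0.00433 and 0.00945.

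V1166 egg 2 was the highest egg for all 6 of these mitochondrial mRNAs. Without that egg 6 of 7 were still called higher and the median log2 change was 0.97, and with female V1166 left out 4 were called. With the female as a random effect 5 were called, mt-Co1 no longer. Without V1131, 0 of 7 were called, with a median log2 change of 1.20 (the fit then had 3 GV oocytes). Of the mitochondrial ribosomal and transfer RNA genes, 14 of 24 were tested and 1 (7.14%, against 7.4% of all tested genes) was called higher, the leucine transfer RNA gene mt-Tl1, which rose by a log2 change of 2.11 (SE 0.37, adjusted p 0.00347). That call was lost with the female as a random effect and without V1131, and without V1126 the count was 5. In polyA cKO libraries 7 of 7 mitochondrial mRNAs were called higher at MII (median 2.03), and in control RiboMinus libraries 2 of 7 (median 0.72). Between genotypes the change in mt-Co1 differed, by 1.35 on the log2 scale (SE 0.39, adjusted p 0.0212), and the other 6 were not called.

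Dormant maternal mRNAs are known for gaining poly(A) tail during maturation, through cytoplasmic polyadenylation elements (CPE) in their 3′ ends that CPEB1 binds. Of the 15 listed dormant mRNAs, 6 had the letters TTTTAT or TTTTAAT in the last 100 bases of their longest protein-coding transcript in GENCODE vM21 (sense strand only, neither motif containing the other). The 30 bases around the motif are printed here because they are the sequence feature by which the group is known, with the motif in capitals, written 5′ to 3′ on the RNA strand from the GRCm38 transcript sequence. These are annotated ends, not ends measured in oocytes. The windows lie at chr9:51119797-51119826 (Btg4, plus strand), chr8:40493038-40493067 (Cnot7, minus), chr14:30527010-30527039 (Dcp1a, plus), chr8:85308249-85308278 (Orc6, plus), chr8:22782745-22782774 (Plat, plus) and chr13:51152473-51152502 (Spin1, plus).
Btg4: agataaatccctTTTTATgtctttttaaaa
Cnot7: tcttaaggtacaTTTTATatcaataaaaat
Dcp1a: caaatatatttTTTTAATaaaatttcaaaa
Orc6: tcaagcccaataaatgttatTTTTATatgc
Plat: gtatatttataTTTTAATctattttagttt
Spin1: tctgtaagtaatTTTTATaattatgatgta

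Without poly(A) selection, members of this group were called in both directions. Of the 15 dormant mRNAs, 3 (20%) were called higher and 2 (13.3%) lower in eggs, against 7.4% and 8.67% of all tested genes, with a median log2 change of 0.29. The counts were 0 and 2 without V1166 (median −0.03) and 0 and 1 without V1131. With the female as a random effect they were 1 and 1, Orc6 and Ccnb1, and without GV oocytes 2 and 3 of V1126 they were 5 and 2. In control RiboMinus libraries 3 (20%) were called higher and 7 (46.7%) lower of 15, against 15% and 15.8% of all tested genes (median −0.30). The genotype difference (cKO minus control) was called positive for 5 and negative for 2 of 15 (median 0.55). In polyA cKO libraries 15 of 15 were called higher, with a median of 1.37. The difference between the library types (RiboMinus minus polyA) was called negative for 14 of 15, a count that was 13 with DESeq2 size factors and 12 with library totals. Library type was not measured in the same females, so the type and the females cannot be told apart.

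Orc6, a subunit of the replication origin complex, had 90.5, 107 and 191 CPM at GV and 319, 364, 208 and 212 CPM in eggs, with all eggs above all GV oocytes (log2 change 1.24, SE 0.23, adjusted p 0.00435). In polyA libraries its log2 change was 1.70 (adjusted p 3.02e-10). Spin1, a spindle-associated histone reader, rose by a smaller step, from 2990.3, 3328 and 4024 CPM to 5485, 4998, 4338 and 4481 CPM (log2 change 0.49, SE 0.14, adjusted p 0.0329). Dcp1a, a decapping activator, had 1180, 1509.6 and 2916 CPM at GV and 3235, 2754, 2644 and 2316 CPM in eggs (log2 change 0.76, SE 0.23, adjusted p 0.0381). GV oocyte 3 of V1126 was as high as the eggs for Dcp1a. Ccnb1, cyclin B1, had 229, 286 and 320.3 CPM at GV and 179.8, 119, 80.3 and 113 CPM in eggs, with no overlap, and fell (log2 change -1.20, SE 0.21, adjusted p 0.00363), while in polyA libraries its log2 change was 1.38 (adjusted p 9.35e-17). Mos, the kinase that holds eggs in metaphase II, had 304, 407 and 630.3 CPM at GV and 266, 264, 214 and 212 CPM in eggs, also without overlap (log2 change -0.87, SE 0.21, adjusted p 0.0136), with a polyA log2 change of 1.19 (adjusted p 2.69e-11). Between the library types the change differed by -2.81 for Ccnb1 and by -2.29 for Mos on the log2 scale (adjusted p 1.29e-15 and 1.17e-10).

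The CPE letters were then looked up in all protein-coding genes, of which 13577 of 13649 could be matched. In the RiboMinus cKO change, the 2557 genes with the letters (18.8%) had a median log2 change of 0.02 and the 11020 without had 0.01. The numbers called higher and lower were 218 and 281 among genes with the letters, so 8.53% and 10.99%, and 8.48% and 9.42% among those without. In polyA cKO libraries the medians were 0.39 with the letters and −0.33 without. There 49.95% against 29.5% of genes were called higher and 27.25% against 46.12% lower. In control RiboMinus libraries the medians were −0.23 and −0.04, with 11.92% against 16.69% called higher and 25.99% against 16.32% lower. A match of these letters is a description of the annotated sequence and not of a site in use.

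mRNAs of ribosomal proteins are short, abundant and known for losing their tails early in maturation. In the cKO RiboMinus libraries 2 of 79 (2.53%) were called higher and 6 (7.59%) lower, against 7.4% and 8.67% of all tested genes, with a median log2 change of −0.35. The number called lower was 14 with DESeq2, 17 without V1167 (median −0.69), 4 with the female as a random effect and 0 without V1131. In polyA libraries of the knockout 68 of 74 were called lower (median −2.96), and in control RiboMinus libraries 26 of 80 were called higher and 6 lower (median 0.46). Among the cKO calls, Rps20 had 36.5, 46.3 and 59.2 CPM at GV and 6.42, 8.50, 22.9 and 18.03 CPM in eggs (log2 change -1.78, SE 0.34, adjusted p 0.00517), and Rpl24 had 3.99, 5.42 and 8.64 CPM and 23.6, 17.7, 12.9 and 20.2 CPM (log2 change 1.57, SE 0.31, adjusted p 0.00576). Neither overlapped between the stages, so these 2 genes for ribosomal proteins of the small and the large subunit moved in opposite directions. Rps27a, Rpl38, Rps21, Rps13 and Rps15 also fell and Rps27l rose, of which Rps27a, Rps15 and Rps27l were not called with the female as a random effect. Ribosomal protein genes have many near-identical pseudogenes, so their counts are uncertain where reads could be shared.

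Nuclear genes of oxidative phosphorylation were called higher at about the share of all tested genes. Of 76, 6 (7.89%) were called higher and 0 lower in the cKO RiboMinus change (median −0.04), against 7.4% and 8.67% of all tested genes. Without V1167 the counts were 2 higher and 11 lower (median −0.61), and both were 0 without V1131 and with the female as a random effect. In polyA libraries the counts were 5 higher and 66 lower of 75 (median −2.48). In control RiboMinus libraries 46 of 76 were called higher and 4 lower (median 1.05). The difference between genotypes was called negative for 23 and positive for 1 of the 76, with a median of −0.88. Ndufa10, a complex I subunit, had 44.1, 49.8 and 54.1 CPM at GV and 104, 144, 66.6 and 71.6 CPM in eggs (log2 change 0.96, SE 0.20, adjusted p 0.00846). Atp5j2, a subunit of ATP synthase, had 36.2, 45.03 and 56.4 CPM and 91.9, 81.4, 66.5 and 82.1 CPM (log2 change 0.82, SE 0.18, adjusted p 0.00881), and its polyA log2 change was -4.51 (adjusted p 3.15e-23). Eggs were above all GV oocytes for both genes.

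Of 36 proteasome genes, 6 (16.7%) were called higher and 4 (11.1%) lower, against 7.4% and 8.67% of all tested genes. These counts were 1 and 9 without V1167 (median −0.61), 0 and 0 without V1131, and 1 and 2 with the female as a random effect. Psmd2, a subunit of the regulatory particle, had 71.2, 78.3 and 87.3 CPM at GV and 139, 91.5, 204 and 171 CPM in eggs (log2 change 0.95, SE 0.19, adjusted p 0.00665). Psmd7, another regulatory subunit, had 51.7, 64.5 and 76.2 CPM and 22.4, 26.4, 35.8 and 33.2 CPM (log2 change -1.14, SE 0.20, adjusted p 0.00379). For both the stages did not overlap, and the direction was opposite.

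Replication-dependent histone mRNAs, which end in a stem-loop and carry no poly(A) tail, could be followed in RiboMinus libraries. Of 48 tested, 2 (4.17%) were called higher and 7 (14.6%) lower, against 7.4% and 8.67% of all tested genes (median −0.41). The summed level of all 68 listed histone genes was higher in eggs by its median, with 1387, 2816 and 3832 CPM at GV and 2563, 3375 and 4195 CPM at MII (lowest, median and highest), and overlapped. Without V1131 the median log2 change was 0.56 with 0 called, and without V1126 it was −0.77 with 1 higher and 14 lower. With the female as a random effect 1 was called lower and 0 higher, neither of the genes below. Hist1h3a, a histone H3 gene, had 28.8, 133 and 234 CPM at GV and 33.7, 36.6, 23.6 and 34.1 CPM in eggs, which overlapped (log2 change -2.01, SE 0.47, adjusted p 0.0127). V1126 oocytes 2 and 3 were at or near the egg levels. Hist1h3g, another H3 gene, had 10.2, 26.3 and 47.5 CPM and 7.22, 6.62, 9.92 and 7.07 CPM without overlap (log2 change -1.73, SE 0.43, adjusted p 0.0160). Histone genes of a type are near-identical, so the single members are uncertain.

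**Figure D3:**
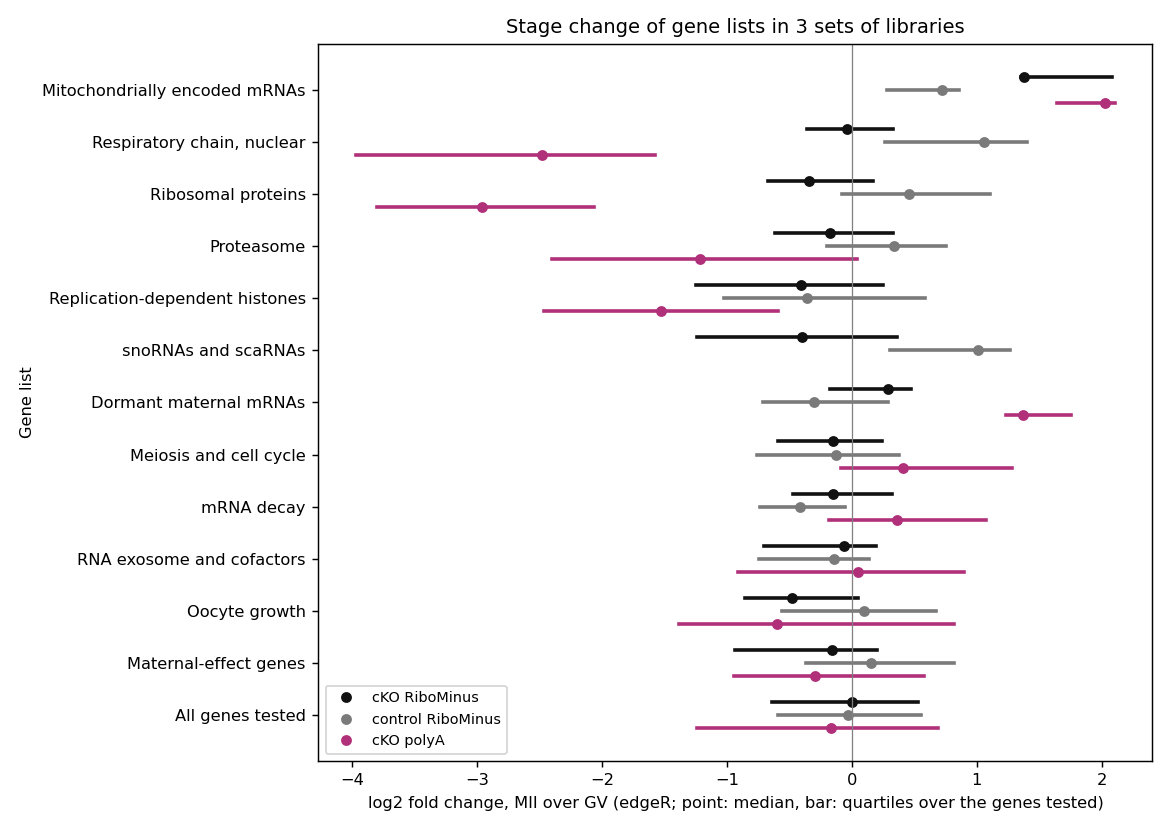
Log2 change from GV to MII (x axis) of each gene list (y axis) in RiboMinus cKO, RiboMinus control and polyA cKO libraries, as the median (point) and quartiles (bar) over the genes tested. Ribosomal protein genes have medians of −0.35, 0.46 and −2.96, and dormant mRNAs 0.29, −0.30 and 1.37.

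**Figure D4:**
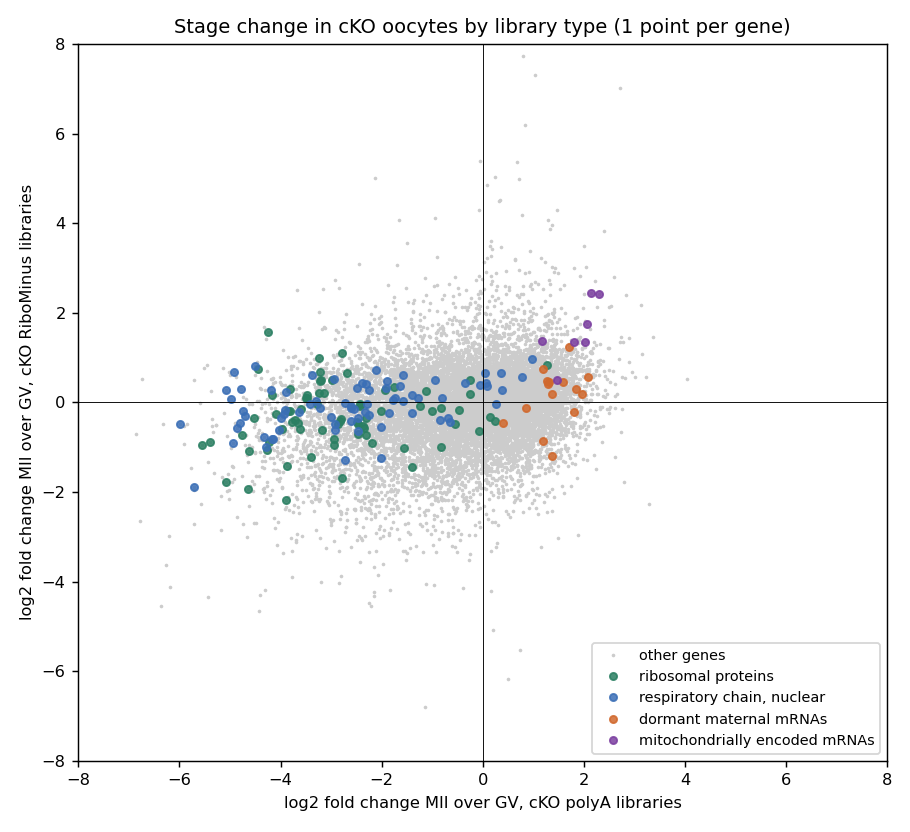
Log2 change from GV to MII in cKO RiboMinus libraries (y axis) against that in cKO polyA libraries (x axis), 1 point per gene tested in both, 13140 of them within the axes and 1 outside. Ribosomal protein genes lie mostly to the left, with a median of −2.96 on the polyA axis and −0.35 on the RiboMinus axis.

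Genes of oocyte growth, which build the egg coat and the contact with surrounding follicle cells, were called lower in eggs more often than higher. Of 18, 0 were called higher and 5 (27.8%) lower, against 7.4% and 8.67% of all tested genes (median −0.48). The counts were 3 higher and 7 lower without V1126, 0 and 0 without V1131, and 0 and 2, Zp3 and Nobox, with the female as a random effect. Zp3, a zona pellucida protein, had 379, 919 and 1299 CPM at GV and 179, 142, 502 and 314 CPM in eggs (log2 change -1.59, SE 0.40, adjusted p 0.0177), and V1167 egg 1 overlapped the 2 lowest GV oocytes. Gja4, the gap junction protein connexin 37, had 214, 295 and 552 CPM and 110.4, 31.6, 163 and 175 CPM (log2 change -1.55, SE 0.40, adjusted p 0.0190), and Nobox, a transcription factor of follicle growth, had 426, 544 and 588 CPM and 235, 319, 319 and 334 CPM (log2 change -0.80, SE 0.15, adjusted p 0.00553). Neither of those 2 overlapped. Cd9, needed for sperm fusion, and Kit, the receptor of kit ligand, fell by 1.41 and 1.14 on the log2 scale (adjusted p 0.0137 and 0.0124).

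Of the 18 maternal effect genes, whose products the early embryo depends on, 1 (5.56%) was called higher and 5 (27.8%) lower, against 7.4% and 8.67% of all tested genes (median −0.16). Besides Dnmt1, Khdc3, a protein of the subcortical maternal complex, had 297, 411 and 659 CPM at GV and 20.9, 63.5, 206 and 238 CPM in eggs (log2 change -1.68, SE 0.50, adjusted p 0.0356), where the V1166 eggs were lower than the V1167 eggs. Trim28, a corepressor that protects imprints, had 211, 458 and 498 CPM and 192, 163, 211 and 227 CPM (log2 change -1.01, SE 0.26, adjusted p 0.0207), and 2 GV oocytes of V1126 were at the level of the eggs. Zfp57, the zinc finger protein that recruits TRIM28 to imprints, rose from 1487, 1857 and 2925 CPM to 4781, 3593, 3273 and 3111 CPM without overlap (log2 change 0.82, SE 0.20, adjusted p 0.0155). Nlrp2 and Nlrp5, of the NLRP family of the same complex, fell by 1.55 and 0.74 (adjusted p 0.0380 and 0.0376). Without V1166 egg 2, 1 gene of this list was called higher and 1 lower, and without V1131 or without V1166 0 were higher and 1 lower. The calls of Trim28 and Nlrp5 were lost with the female as a random effect.

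Among 35 genes of meiosis and the cell cycle, 3 (8.57%) were called higher and 7 (20%) lower, against 7.4% and 8.67% of all tested genes (median −0.15). They were 0 and 2 without V1131 and 1 and 3 with the female as a random effect, where Espl1, Wee1, Ccnb1 and Wee2 were called and Sgo2a, Kif11, Bub1b, Mos, Aurka and Cdc25a were not. Wee1, an inhibitory kinase of CDK1, had 30.6, 91.5 and 199.7 CPM at GV and 9.29, 29.05, 18.7 and 18.7 CPM in eggs, with V1166 egg 2 just under the lowest GV oocyte (log2 change -2.59, SE 0.50, adjusted p 0.00553). Espl1, the gene of separase, which cuts cohesin at anaphase, had 247, 309 and 402 CPM and 94.6, 123.1, 140.4 and 131 CPM (log2 change -1.36, SE 0.18, adjusted p 0.00105). Espl1 showed no overlap and was called without each of the 4 females in turn. Sgo2a, which protects centromeric cohesin, and Kif11, a spindle motor, fell by 1.40 and 1.26 (adjusted p 0.0135 and 0.0163), and Bub1b, a checkpoint kinase, by 0.80 (adjusted p 0.0184). The 3 rises were those of Aurka, a spindle kinase, Cdc25a, a phosphatase that activates CDK, and Wee2, the oocyte form of the inhibitory kinase, with log2 changes of 0.63, 0.76 and 0.70 (adjusted p 0.0373, 0.0235 and 0.00881).

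Of 34 genes of mRNA decay, 2 (5.88%) were called higher and 5 (14.7%) lower, against 7.4% and 8.67% of all tested genes (median −0.15). Without V1131 both counts were 0, without GV oocytes 2 and 3 of V1126 they were 6 and 8, and with the female as a random effect 0 and 4, where Edc4, Dcp1a and Cnot6 were not called. Ddx6, an RNA helicase of stored mRNPs, had 44.5, 167 and 208 CPM at GV and 14.2, 55.6, 40.3 and 31.1 CPM in eggs (log2 change -2.04, SE 0.43, adjusted p 0.00811), where V1166 egg 2 overlapped the lowest GV oocyte. Tob1, which recruits the CCR4-NOT deadenylase, had 54.0, 118 and 149.6 CPM and 17.3, 38.5, 48.5 and 44.1 CPM without overlap (log2 change -1.59, SE 0.31, adjusted p 0.00578). Lsm1, of the ring that binds shortened tails, Ythdf3, an m6A reader, and Edc4, a decapping scaffold, fell by 2.04, 0.98 and 0.66 (adjusted p 0.00887, 0.00898 and 0.0262). Cnot6, a catalytic deadenylase subunit, rose by 0.61 (adjusted p 0.0142), as did Dcp1a.

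Of 24 genes of the RNA exosome and its cofactors, 1 (4.17%) was called higher and 4 (16.7%) lower, against 7.4% and 8.67% of all tested genes (median −0.06). Both counts were 0 without V1131, and they were 0 and 2 without V1166 and 0 and 3 with the female as a random effect, where Dis3 and Exosc7 were not called. They were 3 and 7 without V1126, and also without its GV oocytes 2 and 3 alone. Dis3, the other exonuclease of the nuclear exosome, had 11.01, 14.5 and 25.6 CPM at GV and 32.4, 74.8, 28.4 and 32.5 CPM in eggs (log2 change 1.33, SE 0.32, adjusted p 0.0151). The eggs were all above the GV oocytes, V1166 egg 2 most, and the call was lost without that egg. Exosc4, a core ring subunit, had 16.4, 27.5 and 34.8 CPM and 3.32, 5.58, 9.51 and 10.1 CPM without overlap (log2 change -1.88, SE 0.34, adjusted p 0.00416). Exosc7, another ring subunit, Skiv2l, the helicase of the cytoplasmic exosome, and Zfc3h1, of the nuclear targeting complex, fell by 1.11, 2.28 and 0.95 (adjusted p 0.0228, 0.0184 and 0.00933). In control oocytes 3 (12.5%) were called higher and 8 (33.3%) lower of 24, against 15% and 15.8% of all tested genes, and the difference between genotypes was called for 1 (4.17%, against 14.8%).

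Of the immediate early genes, which respond rapidly to stimuli, 2 (9.09%) were called higher and 2 (9.09%) lower of 22, against 7.4% and 8.67% of all tested genes. All 4 calls were lost with the female as a random effect and without V1166, whereas without V1126 1 was called higher and 4 lower. Gadd45a and Ier2, the other 2 called, lost their calls under 10 of 18 other settings each. Dusp1, a MAP kinase phosphatase, had 20.6, 62.5 and 108 CPM at GV and 15.0, 11.9, 14.1 and 18.3 CPM in eggs without overlap (log2 change -2.04, SE 0.41, adjusted p 0.00676), and Btg1, an antiproliferative gene, had 19.0, 21.7 and 50.7 CPM and 56.9, 86.5, 59.5 and 67.7 CPM, also without overlap (log2 change 1.29, SE 0.28, adjusted p 0.00913).

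Small structured RNAs can be read in these libraries because no tail is required. Of 15 tested, which include Y RNAs and 7SK, 3 (20%, against 7.4% of all tested genes) were called higher and 0 lower (median 0.55). None of the 3 was called without V1166 egg 2, without V1166 (median −0.22), without V1131 or with the female as a random effect. In control oocytes 6 of 12 (50%, against 15% of all tested genes) were called higher and 0 lower (median 1.10). The genotype difference was called for 0 of 15, against 14.8% of all tested genes. The 2 called Y RNAs, components of Ro ribonucleoproteins, are printed here because they rose together, as GRCm38 transcript sequence written 5′ to 3′ on the RNA strand, with T for U. The capitals mark the 3 runs of 8 or more bases that both share in order, the longest of 12 bases. Rny1 lies at chr6:47788069-47788180 (minus strand, 112 bases) and Rny3 at chr6:47781624-47781725 (plus strand, 102 bases).
Rny1: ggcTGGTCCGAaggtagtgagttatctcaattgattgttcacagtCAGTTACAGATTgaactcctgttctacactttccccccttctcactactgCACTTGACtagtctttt
Rny3: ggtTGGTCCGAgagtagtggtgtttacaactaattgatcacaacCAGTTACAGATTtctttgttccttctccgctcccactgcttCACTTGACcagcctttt

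Rny3 had 5.58, 9.04 and 25.1 CPM at GV and 69.5, 69.6, 24.2 and 17.6 CPM in eggs (log2 change 1.81, SE 0.46, adjusted p 0.0189). Rny1 had 6.07, 10.3 and 25.1 CPM at GV and 64.7, 70.7, 28.2 and 20.1 CPM in eggs (log2 change 1.72, SE 0.43, adjusted p 0.0170). Both V1166 eggs were well above all GV oocytes for both RNAs, while the V1167 eggs were within or just above the GV range, and each call was lost when either V1166 egg was left out. Rn7sk, the 7SK RNA that restrains transcription elongation, had 35.2, 54.1 and 109 CPM and 142, 211, 88.9 and 123.4 CPM (log2 change 1.23, SE 0.31, adjusted p 0.0168), with V1167 egg 1 inside the GV range.

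Small nucleolar RNAs (snoRNAs), whose precursors the nuclear exosome trims, were seldom called in the knockout. Of 55 tested, 2 (3.64%) were called higher and 1 (1.82%) lower, against 7.4% and 8.67% of all tested genes, with a median of −0.40. The number called lower was 11 with DESeq2, 4 with counts scaled by library totals, 5 without V1166 egg 2 and 6 without V1166 (median −1.26), with 0 higher in the last 2. With the female as a random effect 0 were called. In control oocytes 11 (18%, against 15% of all tested genes) were called higher and 0 lower of 61 (median 1.01). The genotype difference was called negative for 8 (12.5%, against 7% of all tested genes) and positive for 0 of 64 (median −1.54). Scarna10, a guide RNA of Cajal bodies, had 4.89, 7.04 and 8.77 CPM at GV and 18.2, 26.9, 10.4 and 11.2 CPM in eggs (log2 change 1.25, SE 0.31, adjusted p 0.0161), and Snord17, a box C/D snoRNA, had 1.93, 3.48 and 5.26 CPM and 9.02, 15.0, 6.23 and 6.79 CPM (log2 change 1.35, SE 0.36, adjusted p 0.0234). Snora62, a box H/ACA snoRNA, had 0.749, 1.82 and 3.08 CPM and 0.571, 0.678, 0.261 and 0.196 CPM (log2 change -2.06, SE 0.63, adjusted p 0.0403). None of the 3 overlapped between the stages, but Scarna10 and Snord17 lost their calls without V1166 egg 2, without V1166, without V1131 and with the female as a random effect, and Snora62 in 10 of 17 other settings. snoRNAs lie in introns of other genes, and reads of the host RNA cannot be told apart from the mature snoRNA in these counts. Of 16 snoRNA host genes, 0 were called higher and 2 (12.5%, against 8.67% of all tested genes) lower, one of them Snhg14, with 9.69, 21.2 and 25.9 CPM at GV and 2.25, 4.12, 4.70 and 7.15 CPM in eggs (log2 change -2.09, SE 0.39, adjusted p 0.00461). The other was Snhg9, with 0.196, 0.877 and 2.59 CPM at GV and counts in only 1 of the 4 eggs, where it was at 0.0522 CPM. With the female as a random effect 1 host gene was called lower, Snhg9 no longer, and without V1131 0 were.

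Of 11 nuclear long noncoding RNAs, 2 (18.2%, against 7.4% of all tested genes) were called higher and 0 lower, and neither was called without V1131, without V1166 or with the female as a random effect. Xist, the RNA that coats the inactive X chromosome of female somatic cells, had 0, 0 and 4.71 CPM at GV and 126, 3.96, 1.23 and 4.20 CPM in eggs (log2 change 5.52, SE 1.53, adjusted p 0.0267). V1166 egg 1 alone was high, and the call was lost without it. The same egg had 14.5 CPM of Ptprc, the leukocyte marker CD45, against at most 0.511 CPM in the other 10 oocytes, and the highest oviduct marker sum, and the part of somatic RNA in its values was not tested. Malat1, a nuclear speckle RNA, had 12.8, 86.3 and 212 CPM at GV and 681, 437, 120.5 and 120.2 CPM in eggs (log2 change 1.86, SE 0.59, adjusted p 0.0470), so the V1166 eggs were high and the V1167 eggs were inside the GV range.

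The comparison with control oocytes asked which changes differed with the knockout. Of the 2837 genes whose stage change differed between genotypes, 1500 had a positive and 1337 a negative difference (cKO minus control). The control eggs were all from V1145, so what belongs to that female and what to the genotype cannot be told apart. Over 15606 genes tested in both, the log2 changes of the genotypes had a Spearman correlation of 0.23 across genes, which are not independent replicates. Of the 2545 called in the knockout, 997 (39.2%) were called in controls, against 31.7% of all 15606 genes, and they were 20.2% of the 4946 called there, and 828 of the 997 had the same sign.

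Several of the largest changes in the knockout were not called in controls. Tktl1 was at 0, 0.0695 and 1.27 CPM in control GV oocytes (lowest, median and highest) and at 0, 0 and 2.51 CPM in control eggs, and the genotype difference was 6.01 (SE 1.76, adjusted p 0.0233). Selenop was at 0.390, 1.12 and 2.15 CPM and 0.125, 0.193 and 4.20 CPM in controls, with a difference of 5.77 (SE 1.25, adjusted p 0.00362). Control eggs were thus under every cKO egg for both genes. Slc34a2, a sodium phosphate cotransporter, had 0.274, 1.45 and 7.94 CPM in cKO GV oocytes and 39.7, 4.69, 129 and 237 CPM in cKO eggs, where V1166 egg 2 was within the GV range. Its control levels were 0.211, 1.63 and 4.44 CPM at GV and 0.0999, 0.193 and 6.01 CPM at MII, and the genotype difference was 5.34 (SE 1.47, adjusted p 0.0166).

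Other named genes moved in opposite directions in the genotypes. Cdo1, cysteine dioxygenase, fell in the knockout from 224, 364 and 386 CPM to 26.8, 32.7, 13.7 and 84.8 CPM (log2 change -3.02, SE 0.42, adjusted p 0.00135), and the cKO stages did not overlap. In controls it rose from 252, 337 and 412 CPM to 532, 617 and 714 CPM, again without overlap (log2 change 0.89, adjusted p 5.18e-05). The genotype difference was -3.92 (SE 0.43, adjusted p 9.73e-06). Nlrp5 and Cd9 likewise rose in controls, by 0.87 and 1.02 (adjusted p 1.88e-04 and 0.00491), with genotype differences of -1.61 and -2.44 (adjusted p 7.82e-04 and 0.00101).

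The genotype difference was also called for genes whose knockout change was not called, and for Rif1, which fell in the knockout. Gstm5, a glutathione transferase, was at 12.6, 34.8 and 53.2 CPM and 29.4, 33.5, 22.9 and 37.3 CPM in the knockout (log2 change -0.09, SE 0.34, adjusted p 0.880) and rose from 10.3, 15.8 and 25.1 CPM to 178, 185 and 188 CPM in controls, a difference of -3.52 (SE 0.42, adjusted p 1.85e-05). Rif1 was at 957, 1101 and 1531 CPM and 1153, 1299.5 and 1307 CPM in controls, and its change differed by -1.58 (SE 0.22, adjusted p 6.97e-05). Kmt2a, a histone H3 lysine 4 methyltransferase, had 2.92, 20.1 and 183 CPM at GV and 9.76, 4.22, 14.8 and 1.81 CPM in eggs in the knockout (log2 change -2.58, SE 1.11, adjusted p 0.128), and a difference of -4.97 (adjusted p 0.0102), with the V1131 oocytes above the V1126 oocytes at GV. 4931408C20Rik was at 2.50, 39.0 and 67.9 CPM in control GV oocytes, at 0 in all 3 control eggs, at 20.01, 64.7 and 88.4 CPM in cKO GV oocytes and at 3.01, 0.834, 17.7 and 30.8 CPM in cKO eggs. Its genotype difference was called (adjusted p 0.00317), and its fitted size depends on the prior count and is not a bound. Gm10382, a predicted gene, fell in controls from 25.6, 37.5 and 47.9 CPM to 1.06, 1.10 and 2.19 CPM (log2 change -4.66, adjusted p 4.09e-09) and had 31.7, 44.0 and 51.9 CPM at GV and 9.05, 1.88, 46.7 and 55.5 CPM in eggs in the knockout (log2 change -0.59, SE 0.60, adjusted p 0.532), a difference of 4.06 (adjusted p 0.00117).

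**Figure D5:**
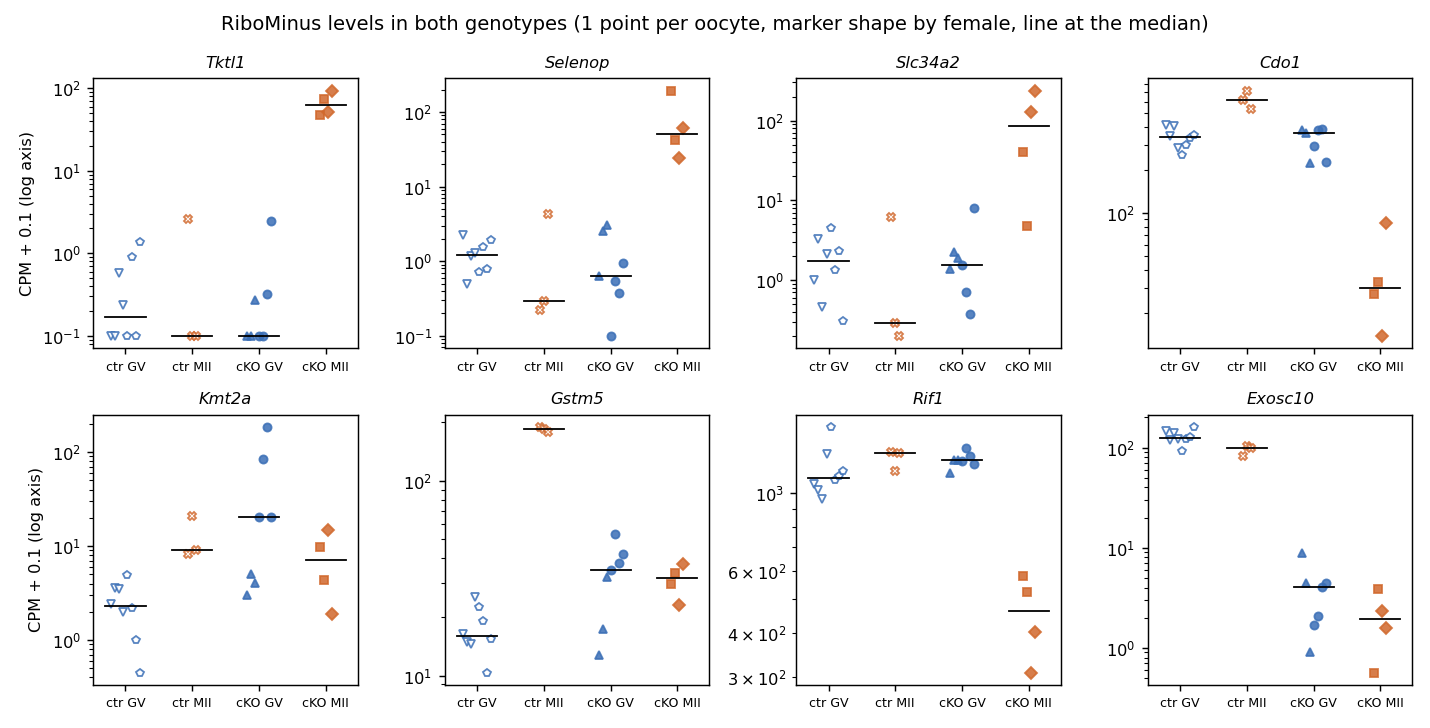
Levels of 8 genes in each RiboMinus oocyte of the 4 groups, GV and MII of cKO and control (log axis, CPM plus 0.1), with a line at each group's median. Tktl1 and Selenop are high in the cKO eggs, Cdo1 is low in the cKO eggs and high in the control eggs, and Exosc10 is low in both cKO groups.

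The comparison with polyA libraries asked where the change depended on how RNA was captured. Of the 7840 genes whose cKO stage change differed between library types, 3885 had a positive and 3955 a negative difference (RiboMinus minus polyA). This split depended on scaling. The positive share of the calls was 49.6% with TMM, 59.9% with DESeq2 size factors and 76.3% with library totals, as the median difference over all genes moved from 0.08 to 0.33 and 0.73 on the log2 scale. Over 13141 genes tested in both types, the log2 changes had a Spearman correlation of 0.23 across genes. Of the 2306 called in RiboMinus libraries, 1706 (74.0%) were called in polyA libraries, about the share of all 13141 genes called there (74.8%), where they were 17.3% of the 9835 called, 1102 of them with the same sign. The other calls went in opposite directions, 306 higher without selection and lower with it, and 298 the reverse.

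Tktl1 was less uniform with selection, at 0, 26.1 and 117 CPM in polyA GV oocytes and 6.03, 59.5 and 219 CPM in polyA eggs (log2 change 1.03, adjusted p 0.169), and the stages overlapped. Its difference between library types was 6.01 (adjusted p 6.22e-04), but −2.29 (adjusted p 0.274) without V888, which gave 10 of the 15 polyA GV oocytes. Pnpla3, a lipid droplet enzyme, Myg1, an exonuclease of nucleus and mitochondria, and Mrpl12, a mitochondrial ribosomal protein, had, besides Tktl1, the largest positive differences among called genes whose mean log2 CPM was 4 or more. Mrpl12 had 55.4, 83.9 and 85.9 CPM at GV and 152, 119, 109.6 and 90.2 CPM in eggs without selection (log2 change 0.60, SE 0.18, adjusted p 0.0393), and fell from 123.2, 156 and 189 CPM to 1.66, 3.92 and 12.3 CPM with it. Pnpla3 was low without selection, at 0.0655, 1.45 and 2.78 CPM and 2.06, 2.92, 2.61 and 1.57 CPM, and fell from 43.6, 68.8 and 85.4 CPM to 0, 0.373 and 2.24 CPM in polyA libraries. Myg1 fell in polyA libraries from 31.3, 49.6 and 74.4 CPM to 0, 0 and 2.24 CPM and was at 8.97, 13.3 and 21.4 CPM and 6.89, 2.50, 15.5 and 9.03 CPM without selection. The differences were 5.37, 7.01 and 5.94 (adjusted p 3.15e-17, 6.29e-13 and 8.20e-10). All 3 were detected in total RNA of all 4 cKO eggs.

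At the negative end, Col4a3 and Mterf3, a mitochondrial transcription termination factor, were lower in eggs without selection and not called with it. Mterf3 had 11.8, 20.2 and 43.8 CPM at GV and 1.37, 2.45, 3.50 and 3.57 CPM in eggs (log2 change -3.22, SE 0.48, adjusted p 0.00181), and 9.82, 25.8 and 56.0 CPM and 18.4, 33.6 and 55.0 CPM in polyA libraries, with a difference of -3.72 (SE 0.52, adjusted p 1.18e-07). For Col4a3 the polyA levels were 4.85, 16.8 and 65.1 CPM at GV and 8.63, 18.9 and 35.6 CPM at MII, and the difference was -3.99 (adjusted p 4.48e-06). Fam124a and the processed pseudogene CT009755.2 fell without selection and rose with it, with differences of -4.83 and -4.62 (adjusted p 0.00533 and 4.21e-06). Among the abundant falls, Rif1 and Cul1 rose in polyA libraries by 0.61 and 1.16 (adjusted p 9.42e-05 and 5.25e-15), with differences of -2.30 and -2.43 (adjusted p 4.90e-10 and 8.65e-14).

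By annotated class, 1159 of 13649 protein-coding genes (8.49%) were called higher and 1324 (9.7%) lower, against 7.4% and 8.67% of all tested genes. Of 929 long intergenic noncoding RNAs, 36 (3.88%) were called higher and 37 (3.98%) lower. Of 351 genes of the annotation class TEC, models not yet backed by experiment, 6 (1.71%) were called higher and 32 (9.12%) lower. Among protein-coding genes, the 315 with a single exon had a median log2 change of −0.45, and 17 were called higher and 47 (14.9%) lower, against 9.58% lower of the 13334 with several exons. Over 5 equal bins of exonic GC content the cKO RiboMinus medians ran between −0.09 and 0.09, whereas in polyA cKO libraries they fell from 0.37 at the lowest to −0.98 at the highest GC, and in control RiboMinus libraries from 0.07 to −0.28. Over 5 bins of exonic length the medians ran from 0.09 for the shortest to −0.09 for the longest genes, from −1.07 to 0.18 in polyA libraries, and from 0.32 to −0.18 in control RiboMinus libraries. These are descriptions across genes.

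The breadth of the libraries was compared last. When each library was reduced to 13665258 counts, GV oocytes had 22570 ± 940.5 genes with at least 1 count (mean ± SD, n = 7) and eggs had 20990 ± 1244 (n = 4). The difference of −1580 genes was larger than the SD of either stage but did not pass the test (two-sided exact permutation test, p = 0.0727), and the values of the stages overlapped. With at least 5 counts per gene the difference was −10.35 (exact permutation p = 0.976). The 100 most counted genes of a library took 15.93 ± 0.684% of its counts at GV (n = 7) and 18.26 ± 2.52% at MII (n = 4), a difference of 2.33 percentage points (exact permutation p = 0.0364, and 0.0727 adjusted over both tests, the smallest possible being 0.00606). V1166 egg 2, also the highest in mitochondrial mRNAs, had 21.8%, and without it the difference was 1.14 points (exact permutation p = 0.1).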

How the data were processed

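Each deposited gene file gives the raw, unnormalized counts of 1 library by Ensembl ID, and its 5 summary lines were left out. The authors built the RiboMinus libraries with Ovation Solo, primed by random hexamers, and isolated polyA RNA on oligo(dT) beads, per the labels' protocols. The submitters' processing notes name, with no role or order, cutadapt 2.5, FastQC 0.11.8, STAR 2.7.2a, SAMtools 1.9, HTSeq 0.9.1, R 3.5.1, DESeq2 1.24.0 and build mm10. The annotation release, strand setting and any duplicate removal are not given in the sources used here, so antisense and overlapping genes are uncertain. Symbols and positions of 55394 of 55573 IDs came from GENCODE vM21 (GRCm38, equal to mm10). Of the 108 libraries 52 were used. A synthetic spike-in was added per the labels, but 0 lines start with ERCC, so changes are relative within a library.

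Low counts were removed by filterByExpr and libraries scaled by TMM, and genes were tested with edgeR 4.0.16 (R 4.3.3) quasi-likelihood F tests, two-sided, with Benjamini-Hochberg adjustment over all tested genes and calls under 0.05. Every adjusted p of a gene is from edgeR, and the SE is the log2 change divided by the root of F. Only the groups compared entered a fit, and the 2 differences were interaction contrasts. The steps were run on simulated data with 200 changed genes and no effect of the female. That simulation cannot show how calls fare where oocytes of 1 female are alike. Alternatives used DESeq2 1.42.0, limma 3.58.1, other scalings and filters, thinned counts, female sums, and each oocyte of the small groups and each female left out. Exact permutation tests used scipy 1.17.1, with numpy 2.4.6, pandas 2.3.3 and matplotlib 3.10.9 in Python 3.11.15.

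Named genes were called, with an average log2 CPM of at least 4, a log2 change of at least 1 in size and no overlap: the 8 largest rises and falls and the next 4 most abundant of each. For each of the 2 differences they were the 4 most positive and 4 most negative among called genes with that average, and up to 6 called members of each gene list could be named. The result of 1 gene that this rule named is not reported here. Members of lists named beyond these were called in the same fit and chosen after their values were seen. The comparison, members and lists were chosen with earlier results of these data known. Depth limits precision for low genes: 1 count is a large step there. Replicates are oocytes listed as separate samples, and p-values measure the spread between them.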

Additional observations from a re-analysis of the deposited data

Results flagged for a closer look

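In 9 of 54 groups examined, each of the 7 cKO GV oocytes or the 4 cKO eggs, 1 oocyte lay far from the others by Dixon's criterion. Chance meets that criterion in about 1 of 20 groups, but these groups share the same oocytes and are not independent. V1166 egg 2 was that oocyte for 6 of them: mt-Nd1 at 15927 CPM, mt-Nd2 at 12684 CPM, mt-Cytb at 7822 CPM, mt-Nd5 at 7559 CPM, mt-Nd4 at 5451 CPM and Cul1 at 752 CPM. Among cKO GV oocytes, V1131 oocyte 4 was apart for Tktl1 with 2.33 CPM, V1126 oocyte 2 for Cul1 with 1306 CPM, and V1126 oocyte 3 for the number of genes at a common depth, 20537. Without V1166 egg 2 the log2 changes were 1.63 for mt-Nd1, 1.78 for mt-Nd2, 0.93 for mt-Cytb, 0.97 for mt-Nd5, 1.20 for mt-Nd4 and −1.33 for Cul1, all still called by edgeR. No fit left out 1 of those 3 GV oocytes alone, and the causes were not tested.

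The stage change differed between genotypes, by the interaction test in edgeR, for 2837 genes (14.8% of those tested). The genes given here were chosen by that difference itself or by the cKO change that forms one side of it, so that their calls are partly fixed by the choice. The differences (cKO minus control, log2) were positive for Tktl1 at 6.01, Selenop at 5.77, Slc34a2 at 5.34, Gm10382 at 4.06, Nhs at 3.98, Mapk10 at 2.59 and mt-Co1 at 1.35. For 4931408C20Rik the fitted value of 10.36 depends on the prior count, since all control eggs were at 0. They were negative for Kmt2a at -4.97, Nes at -4.91, Cdo1 at -3.92, Gstm5 at -3.52, Ptgfrn at -3.14, Tmem168 at -3.09 and Col4a3 at -2.99. Smaller negative differences were those of Lysmd3 at -2.97, Ammecr1 at -2.64, Rif1 at -1.58, C1galt1c1 at -1.43 and Dnmt1 at -1.27.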

How the results depend on the processing

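No paired analysis was possible because each female gave oocytes of 1 stage, and the oocyte numbers name oocytes only. The count of 2770 genes in the cKO stage change stayed within 1.5 times under DESeq2 (4146), DESeq2 size factors (2801), library totals (2735), no filter on low counts (2872), a mean of at least 50 counts (2712) and thinning (2646). It ranged from 1793 to 2472 when 1 egg was left out, and from 203 (without V1131) to 4150 (without V1126) when 1 female was left out. It moved to 0 with female sums, 802 with the female as a random block, 4284 with all 4 RiboMinus groups in one fit, and 4333 without GV oocytes 2 and 3 of V1126, a setting chosen after seeing the data. The count of 2837 for the genotype difference ranged from 1367 (without control female V1132) to 3826 (without V1126) and was 1777 without V1133. The count for the difference between library types stayed within 1.5 times in every setting run. Neither female sums nor the female as a random block was run for either difference. The difference between library types for Tktl1 reversed without female V888, to −2.29 (adjusted p 0.274), and reached 8.35 without V1131. The causes were not tested.

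For the counts on the most abundant genes, the difference was 1.02 points over 10 genes (exact permutation p = 0.121), 2.83 over 1000 genes (p = 0.0909) and 2.24 for female means (p = 0.667, where 2 against 2 cannot go below 0.333). The number of genes at a common depth differed by −1508 for female means (exact permutation p = 0.333, the smallest possible). Leaving out 1 egg gave 1.14 to 2.96 points (exact permutation p from 0.0333 to 0.1). Limits: 2 females per stage, 4 eggs of unequal depth, GV oocytes cultured and eggs from oviducts, no spike-in scale, and control eggs of 1 female.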
